A study of Mus musculus with 24 samples.

Results

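The comparison is between blastocyst pools of 2 experimental codes, HC1 and HC4, in a mouse study of bisphenol A and membrane estrogen receptors. Its members are the 4 pools whose titles carry HC1 and the 4 whose titles carry HC4, 8 of the 24 pools of the series, which fall into 6 codes of 4 pools. Each pool was 15 frozen expanded blastocysts, except in HC6, where it was 20. The labelling used 2 ng of total RNA per pool and the dye Cy3, with a separate array for each pool. Bisphenol A is a plastic monomer that can bind estrogen receptors. HC1 and HC4 are both whole mouse blastocysts. Strain, age of the embryos, agent, dose and time are not given for either code, and neither code is named as a control. The direction of every difference is therefore by code alone, HC1 minus HC4. No label says that the pools of a code came from separate females or cultures, and p-values here are against the spread among these pools only, which may be technical.

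The expanded blastocyst consists of an outer trophectoderm, an inner cell mass and the primitive endoderm that forms from it. Estrogens can act through nuclear receptors, which bind DNA, and through receptors at the plasma membrane, among them the G protein-coupled receptor encoded by Gper1. Membrane receptors signal within minutes through G proteins, cyclic AMP and kinases such as ERK, and this switches on immediate early genes, whose transcription needs no new protein. Their products include transcription factors (Fos, Jun, Egr1, Atf3), secreted matrix proteins (Cyr61, now named Ccn1) and phosphatases and other inhibitors (Dusp1, Dusp6, the Sprouty proteins) that shut ERK signalling down again.

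Array brightness overlapped between the codes. A level is given as the log2 of the processed signal minus the 75th percentile of its array. That percentile was 126 ± 43.4 in HC1 and 145 ± 18.2 in HC4 (SD, n = 4; signal units; exact two-sided permutation test over 70 splits, p = 0.429). The share of spots well above background was 44.2% ± 3.13 in HC1 and 47.2% ± 0.993 in HC4 (SD, n = 4; exact two-sided permutation test, p = 0.143). Across genes, the correlation of pools was 0.983 to 0.990 within HC1, 0.985 to 0.994 within HC4 and 0.983 to 0.994 between the codes. Array position was not balanced. The 24 arrays sat on 3 slides of 2 rows and 4 columns. Each slide column held 1 HC1 and 1 HC4 pool, while slide row 2 held 2 HC1 pools and 1 HC4 pool. With the 6 codes in the model, slide row was associated with 1856 of 18465 genes at an adjusted p under 0.05 (10.1%), slide with 0 and slide column with 0 (limma F-test, Benjamini-Hochberg). At an unadjusted p under 0.05 the counts were 5235 genes for row, 1056 for slide and 680 for column.

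No gene differed between HC1 and HC4 after correction. Of 18465 genes tested, 0 (0%) had an adjusted p under 0.05, and the smallest adjusted p was 0.537 (limma with Benjamini-Hochberg adjustment). An unadjusted p under 0.05 was reached by 454 genes, 2.46% of those tested, of which 151 (0.818%) were higher in HC1 and 303 (1.64%) lower. Without any difference, 923 would be expected at that threshold. The split by direction depended on the scaling: with the percentile taken over probes detected on all arrays, 211 genes were higher in HC1 and 195 lower. Without HC1 pool 4 the 454 became 861, 288 higher and 573 lower, and without HC4 pool 1 the 303 lower genes became 199. The values of the 4 HC1 pools did not overlap those of the 4 HC4 pools for 352 genes (1.91%), with 108 higher in HC1 (0.585%) and 244 lower (1.32%). The median difference over all genes was -0.031, with 7810 genes higher in HC1 and 10655 lower.

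The precision behind these counts was moderate. The median standard error of a log2 difference was 0.194, and for 78.2% of genes the 95% interval of the difference stayed inside 2-fold on both sides. A difference of 1 or more on the log2 scale was measured for 300 genes, of which 16 were well above background on all 8 arrays. Every gene described from here on failed the correction, so each difference is given as a value with its standard error (SE) or 95% interval from the limma model, and "higher" and "lower" refer to the measured means. The adjusted p was at least 0.537 for each.

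The immediate early and ERK feedback genes stood mostly below HC4 in HC1. Of 26 genes on the list, 22 were tested, and 16 had a lower and 6 a higher mean in HC1. Over all 18465 genes, 10655 were lower and 7810 higher. The lean is not particular to this list: NRF2 antioxidant genes were 18 lower and 3 higher, and trophectoderm markers 13 lower and 14 higher. Of the 22 tested members, 6 had an unadjusted p under 0.05, all of them lower in HC1, where 1.64% of all genes were. They were Cyr61, Dusp1, Ier3, Jun, Atf3 and Fos, of which Ier3, Atf3 and Fos were dim. With only probes well above background on all 8 arrays, 3 of 17 tested members were, Cyr61, Dusp1 and Jun. In that fit 203 of 14187 genes were. HC1 had the lowest mean of the 6 codes for the 6 genes named first and for 8 of the 22 in all. The 6 were picked for a small p with HC1 lower, so that count describes them and supports nothing. The share of all genes with HC1 lowest was not counted. The list median was -0.17, against -0.031 over all genes. Cyr61 and Dusp1 were the 2 members whose HC1 and HC4 pools did not overlap, both lower in HC1, where 1.32% of all genes were. In a pool of whole embryos, fewer cells of a type and less RNA per cell cannot be told apart.

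The promoters of 3 of these genes are shown because they carry the short DNA word through which cyclic AMP-responsive factors of the CREB and ATF family are known to act. Each run is the 250 bases before the annotated transcription start, 5′ to 3′ on the gene's strand (RefSeq, GRCm38.p6), and the capitals mark TGACG or its reverse complement CGTCA.
Ccn1: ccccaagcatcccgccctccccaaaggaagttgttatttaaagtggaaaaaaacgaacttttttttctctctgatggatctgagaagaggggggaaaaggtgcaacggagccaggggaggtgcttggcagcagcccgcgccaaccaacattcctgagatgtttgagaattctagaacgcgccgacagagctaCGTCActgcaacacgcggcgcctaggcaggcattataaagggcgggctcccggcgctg
Dusp1: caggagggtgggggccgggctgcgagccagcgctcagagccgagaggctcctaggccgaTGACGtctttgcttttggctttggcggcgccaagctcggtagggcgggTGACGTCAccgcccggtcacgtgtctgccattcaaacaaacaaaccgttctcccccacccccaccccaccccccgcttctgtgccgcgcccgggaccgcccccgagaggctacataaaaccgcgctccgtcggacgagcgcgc
Fos: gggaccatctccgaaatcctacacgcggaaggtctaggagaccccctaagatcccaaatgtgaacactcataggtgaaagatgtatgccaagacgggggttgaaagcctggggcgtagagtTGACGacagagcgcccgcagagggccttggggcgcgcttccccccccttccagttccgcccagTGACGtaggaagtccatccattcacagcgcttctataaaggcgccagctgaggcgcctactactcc
The windows are chr3:145649986-145650235, minus strand, for Ccn1, chr17:26508473-26508722, minus strand, for Dusp1, and chr12:85473640-85473889, plus strand, for Fos. The match in Ccn1 began 58 bases before the start. Dusp1 held matches at 191, 143 and 140 bases before the start, of which the last pair overlap and form the full palindrome TGACGTCA. Fos held matches at 129 and 66 bases before the start.

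Promoter windows were counted for the 26 genes of the list, tested or not, and 22 windows were found. They need not be those of the 22 tested members. TGACG or CGTCA was in 11 of these 22 windows, against 17.8% of 32851 promoter windows of the same length. Counted apart, it was in 4 of the 6 members with p under 0.05 (Ccn1, Dusp1, Fos and Atf3). TGACGTCA, which contains both words, was in 1 of the 22, that of Dusp1, against 1.55% of all windows. The AP-1 site TGACTCA, or TGAGTCA on the other strand, was in 0 of the 22, against 4.46% of all windows. The CArG box bound by serum response factor was in 5 of the 22 and in 0 of the 6, against 1.47% of all windows. Only the bases of these windows were searched, so the 0 does not show that the 6 genes lack a CArG box elsewhere. The percentages cover all promoter windows and not only those of tested genes. Which factors act on the 6 genes was not tested. A match describes these letters and is not a binding site.

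Cyr61 encodes a secreted matrix protein that is a well-known target of serum response factor and of YAP. Its levels were 0.65, 0.28, 0.70 and 0.78 in HC1 pools 1 to 4 and 1.34, 0.91, 1.42 and 1.21 in HC4 pools 1 to 4. Every HC1 pool was below every HC4 pool, and the means were 0.60 ± 0.22 and 1.22 ± 0.22 (SD, n = 4). The difference was -0.62 (SE 0.18, 95% interval -0.998 to -0.24), or 1.53-fold lower in HC1. The other 16 pools ran from 0.59 to 1.74, a span that held 3 HC1 pools and all 4 HC4 pools. Its probe lies at chr3:145310187-145310246 on mm9, the build of the array files.

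Dusp1 encodes a nuclear phosphatase that inactivates ERK, p38 and JNK. Its levels were 1.12, 1.48, 1.22 and 1.21 in HC1 pools 1 to 4 and 1.59, 1.72, 1.77 and 1.73 in HC4 pools 1 to 4. HC1 pool 2 was the highest HC1 pool and still lay below the lowest HC4 pool, and the means were 1.26 ± 0.15 and 1.70 ± 0.08 (SD, n = 4). The difference was -0.44 (SE 0.14, 95% interval -0.73 to -0.16), or 1.36-fold lower in HC1. Its probe lies at chr17:26642624-26642683 on mm9.

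Jun and Fos encode the subunits of the AP-1 transcription factor. The levels of Jun were 1.68, 1.61, 1.57 and 1.97 in HC1 pools 1 to 4 and 2.19, 2.08, 2.38 and 1.80 in HC4 pools 1 to 4. HC1 pool 4 was above HC4 pool 4, so the groups overlapped by that pair. The difference was -0.41 (SE 0.15, 95% interval -0.71 to -0.10). Jun was also among the genes associated with slide row (adjusted p = 0.0342, limma F-test), and with the row as a block its difference was -0.34.

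Fos was dimmer, well above background on 2 of 4 HC1 and 4 of 4 HC4 arrays. Its levels were -3.24, -2.69, -2.60 and -1.86 in HC1 pools 1 to 4 and -1.35, -1.62, -1.50 and -2.26 in HC4 pools 1 to 4. Again HC1 pool 4 was above HC4 pool 4, and the remaining HC1 pools were below every HC4 pool. The difference was -0.92 (SE 0.40, 95% interval -1.76 to -0.072). Its probe lies at chr12:86818118-86818177 and that of Jun at chr4:94716928-94716987 on mm9.

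Atf3, a stress-induced member of the ATF family, was well above background on 3 of 4 HC1 and 4 of 4 HC4 arrays. Its levels were -2.37, -2.31, no value and -1.78 in HC1 pools 1 to 4 and -1.13, -0.96, -1.79 and -1.01 in HC4 pools 1 to 4; the spot of HC1 pool 3 was marked as an outlier. HC1 pool 4 and HC4 pool 3 were nearly equal, and the other pools of the codes were apart. The difference was -0.93 (SE 0.39, 95% interval -1.75 to -0.11). Ier3, an immediate early gene that modulates ERK signalling and cell death, was well above background on 0 of 4 HC1 and 3 of 4 HC4 arrays. Its levels were -4.28, -4.08, -3.72 and -4.46 in HC1 pools 1 to 4 and -3.06, -2.70, -2.82 and -3.74 in HC4 pools 1 to 4, with a difference of -1.05 (SE 0.37, 95% interval -1.82 to -0.29). The HC1 values of Ier3 are thus bounds set by the background, and no fold is given. Atf3 and Fos were named after their values were seen, since the naming rule takes 4 members of a list.

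The rest of the list had no member with p under 0.05. Dusp6, the ERK-specific phosphatase most used as a readout of FGF signalling, differed by -0.0097 (SE 0.12), and its 95% interval was -0.26 to 0.24. The ERK-dependent ETS factors Etv5 and Etv4 differed by 0.0036 (SE 0.13) and -0.037 (SE 0.26). The values were 0.016 (SE 0.14) for Junb and 0.0024 (SE 0.13) for Myc. Among the Sprouty and Spred inhibitors of ERK signalling, Spry2 differed by 0.13 (SE 0.12), Spry1 by -0.11 (SE 0.11), Spred1 by -0.24 (SE 0.30) and Spred2 by 0.12 (SE 0.15). Jund differed by -0.20 (SE 0.17), Ier2 by -0.13 (SE 0.15), Dusp4 by -0.15 (SE 0.20), Dusp5 by 0.20 (SE 0.30) and Spry4 by -0.33 (SE 0.65). Ctgf, a matrix protein gene related to Cyr61, differed by -0.25 (SE 0.40). The wide errors of Egr1, Spry4, Ctgf, Spred1 and Dusp5 leave their differences unresolved. Egr1, a zinc finger factor, was well above background on 2 of 4 HC1 and 3 of 4 HC4 arrays, with a difference of -0.45 (SE 0.46). HC4 pool 2 was at -0.66 for Egr1, above all 16 pools of the other codes, and without it the sign turned to 0.093. Fosb, Fosl1, Egr2 and Egr3 did not pass the background filter.

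**Figure D1:**
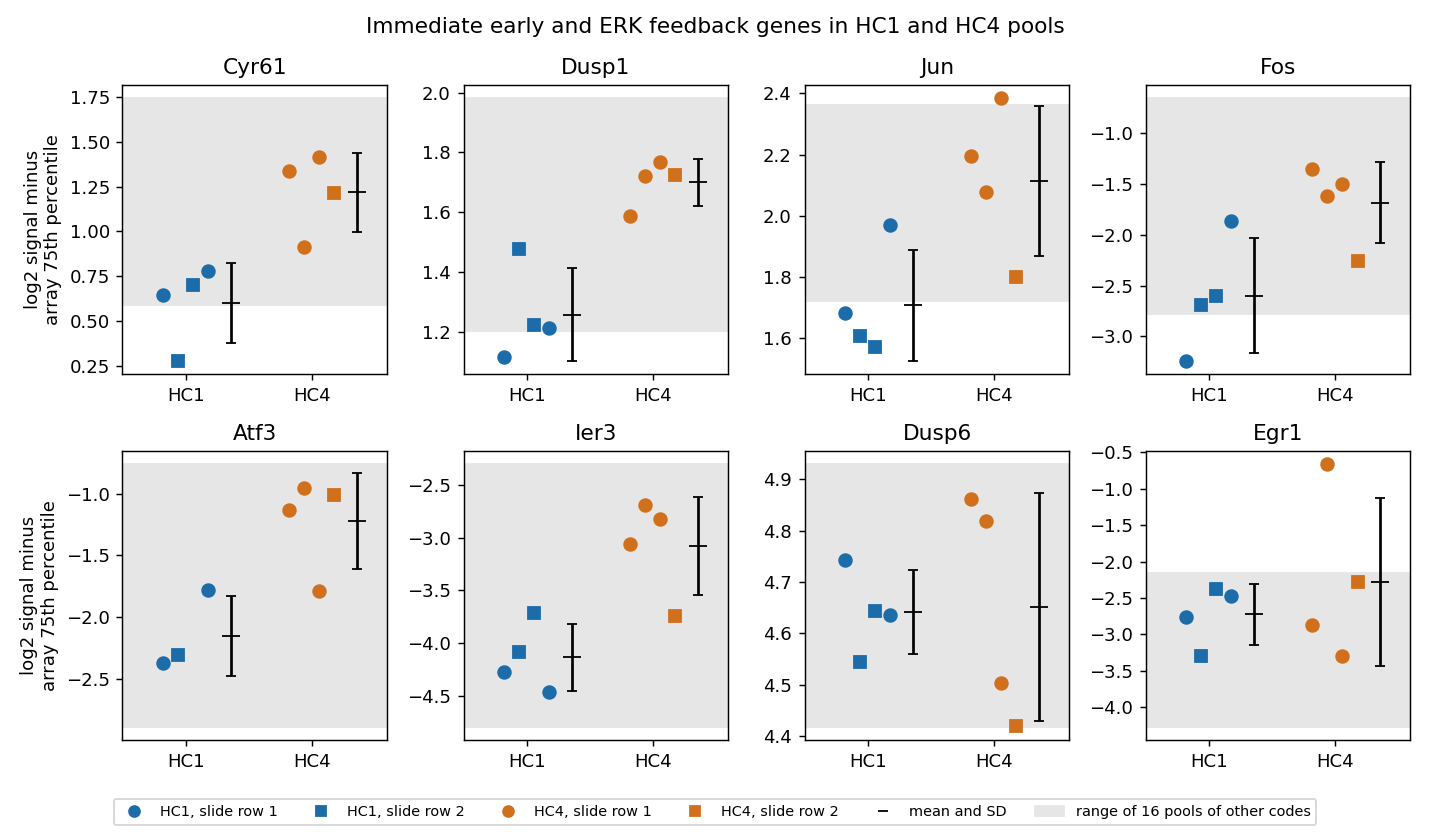
Level of 8 genes of the immediate early list in each pool (log2 signal minus the 75th percentile of the array), with the slide row as the symbol, the mean and SD of each code in black and the range of the 16 pools of the other codes in grey. HC1 and HC4 pools are separate for Cyr61 and Dusp1, overlap by few pools for Jun, Fos, Atf3 and Ier3, and are mixed for Dusp6 and Egr1; levels of Ier3 in HC1 are not well above background.

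The list was also followed through other fits. Between 3 and 6 of its members had an unadjusted p under 0.05 in each of the 25 alternatives run, and 0 of them was higher in HC1. Cyr61 and Dusp1 were among them in every alternative. Without HC4 pool 4 the list median was -0.30, without HC1 pool 2 it was -0.11 and without HC4 pool 1 it was -0.11. With slide row as a block, 6 members stayed under 0.05 and the median was -0.12, against -0.015 over all genes in that fit.

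The gene of smallest p among those lower in HC1 was Pla2g12a, which encodes a secreted phospholipase A2. Its levels were 0.36, 0.23, 0.30 and 0.15 in HC1 pools 1 to 4 and 0.62, 0.61, 0.66 and 0.80 in HC4 pools 1 to 4. The codes were separated by a gap wider than the spread within either, with means of 0.26 ± 0.09 and 0.67 ± 0.09 (SD, n = 4). The difference was -0.41 (SE 0.10, 95% interval -0.62 to -0.21). The other 16 pools ran from 0.42 to 0.83, so all 4 HC1 pools lay below every other pool of the series. Its probe is at chr3:129597769-129597828 on mm9.

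Tnfrsf12a encodes Fn14, the receptor of the cytokine TWEAK, and its levels were 0.30, 0.23, 0.64 and 0.28 in HC1 pools 1 to 4 and 0.88, 0.71, 0.67 and 0.81 in HC4 pools 1 to 4. HC1 pool 3 came close to the lowest HC4 pool, and the other HC1 pools were well apart from HC4. The difference was -0.40 (SE 0.11, 95% interval -0.64 to -0.17). Trappc2l, a subunit of the TRAPP vesicle-tethering complex, had levels of 3.02, 3.14, 3.38 and 3.16 in HC1 pools 1 to 4 and 3.48, 3.58, 3.45 and 3.52 in HC4 pools 1 to 4, without overlap and with a difference of -0.33 (SE 0.10, 95% interval -0.54 to -0.13). Parva encodes alpha-parvin, which links integrins to actin. Its levels were 0.60, 0.29, 0.39 and 0.16 in HC1 pools 1 to 4 and 0.95, 0.69, 0.98 and 0.66 in HC4 pools 1 to 4, without overlap, and the difference was -0.46 (SE 0.15, 95% interval -0.78 to -0.14).

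Of the other genes lower in HC1, Plk4, the kinase that starts centriole duplication, differed by -0.44 (SE 0.13, 95% interval -0.72 to -0.16) with overlap of the codes. A pair of further Plk4 probes well above background on all 8 arrays gave -0.11 and 0.074, so its probes disagreed. Mmd differed by -0.46 (SE 0.14, 95% interval -0.76 to -0.16) and Tusc1 by -0.54 (SE 0.17, 95% interval -0.89 to -0.19), both without overlap. Adgrb1, an adhesion G protein-coupled receptor, differed by -0.80 (SE 0.27, 95% interval -1.36 to -0.24) with overlap. Its other probes, which were dimmer, gave 0.079 and 0.78, and the mean of its probes turned the sign to 0.020. Slide row was associated with Adgrb1 (adjusted p = 0.013, limma F-test), and with the row as a block it differed by -0.67.

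Among the genes higher in HC1 was Txnip, which encodes an inhibitor of thioredoxin that also restrains glucose uptake. Its levels were 2.70, 2.62, 2.63 and 2.68 in HC1 pools 1 to 4 and 2.45, 2.33, 2.27 and 2.52 in HC4 pools 1 to 4. The HC1 pools lay close together and above every HC4 pool, with means of 2.66 ± 0.04 and 2.40 ± 0.11 (SD, n = 4). The difference was 0.26 (SE 0.09, 95% interval 0.074 to 0.45), or 1.2-fold, and a further Txnip probe gave 0.28. The probe lies at chr3:96365340-96365399 on mm9.

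Adgre5 encodes CD97, an adhesion G protein-coupled receptor. Its levels were 3.38, 3.47, 3.75 and 3.56 in HC1 pools 1 to 4 and ran from 2.996 to 3.20 in the 4 HC4 pools, without overlap. The difference was 0.45 (SE 0.17, 95% interval 0.11 to 0.80), and a further probe well above background on all 8 arrays gave 0.74. Prss48, a serine protease gene, had levels of -1.76, -1.69, -2.07 and -2.08 in HC1 pools 1 to 4 and -2.73, -2.79, -2.77 and -2.54 in HC4 pools 1 to 4. The codes did not overlap, and the difference was 0.81 (SE 0.26, 95% interval 0.28 to 1.35). Vwa8, whose product is a mitochondrial ATPase, had levels of -1.60, -1.43, -1.62 and -2.15 in HC1 pools 1 to 4 and -2.46, -2.31, -2.16 and -2.25 in HC4 pools 1 to 4; HC1 pool 4 was just above HC4 pool 3. The difference was 0.59 (SE 0.20, 95% interval 0.17 to 1.01).

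Among genes higher in HC1 and well above background on all 8 arrays, Svip had the smallest p. It encodes a small protein that binds the ATPase VCP and restrains degradation from the endoplasmic reticulum. Its levels were -0.35, -0.17, -0.51 and -0.28 in HC1 pools 1 to 4 and -0.90, -0.64, -0.99 and -0.39 in HC4 pools 1 to 4. HC4 pool 4 lay among the HC1 pools. The difference was 0.40 (SE 0.12, 95% interval 0.15 to 0.66). Tssc1 differed by 0.58 (SE 0.18, 95% interval 0.20 to 0.97) without overlap, and Snx21, a sorting nexin gene, by 0.58 (SE 0.19, 95% interval 0.19 to 0.97) with overlap. Ripk1, a kinase of TNF receptor signalling, differed by 0.65 (SE 0.23, 95% interval 0.16 to 1.14), and a dimmer probe gave 0.052. Glrb, the beta subunit of the glycine receptor, differed by 0.54 (SE 0.20, 95% interval 0.13 to 0.94) and was associated with slide row (adjusted p = 0.0168, limma F-test). With the row as a block Glrb differed by 0.63.

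Elk4, a partner of serum response factor at immediate early promoters, was higher in HC1 by its brightest probe. Its levels were -1.84, -1.32, -2.36 and -1.93 in HC1 pools 1 to 4 and -2.44, -2.39, -2.58 and -2.66 in HC4 pools 1 to 4, without overlap, and the difference was 0.65 (SE 0.20, 95% interval 0.23 to 1.08). Its dimmer probes gave -0.34, -0.62, 0.36 and 1.33, and the mean of the probes turned the sign to -0.10. Of the 20 genes led by p in the 2 directions, 14 had codes that did not overlap, 6 higher in HC1 and 8 lower. HC1 had the lowest mean of the 6 codes for 10 of the 10 lower genes and the highest for 10 of the 10 higher genes. They were chosen for their small p, so these counts describe them and support nothing.

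**Figure D2:**
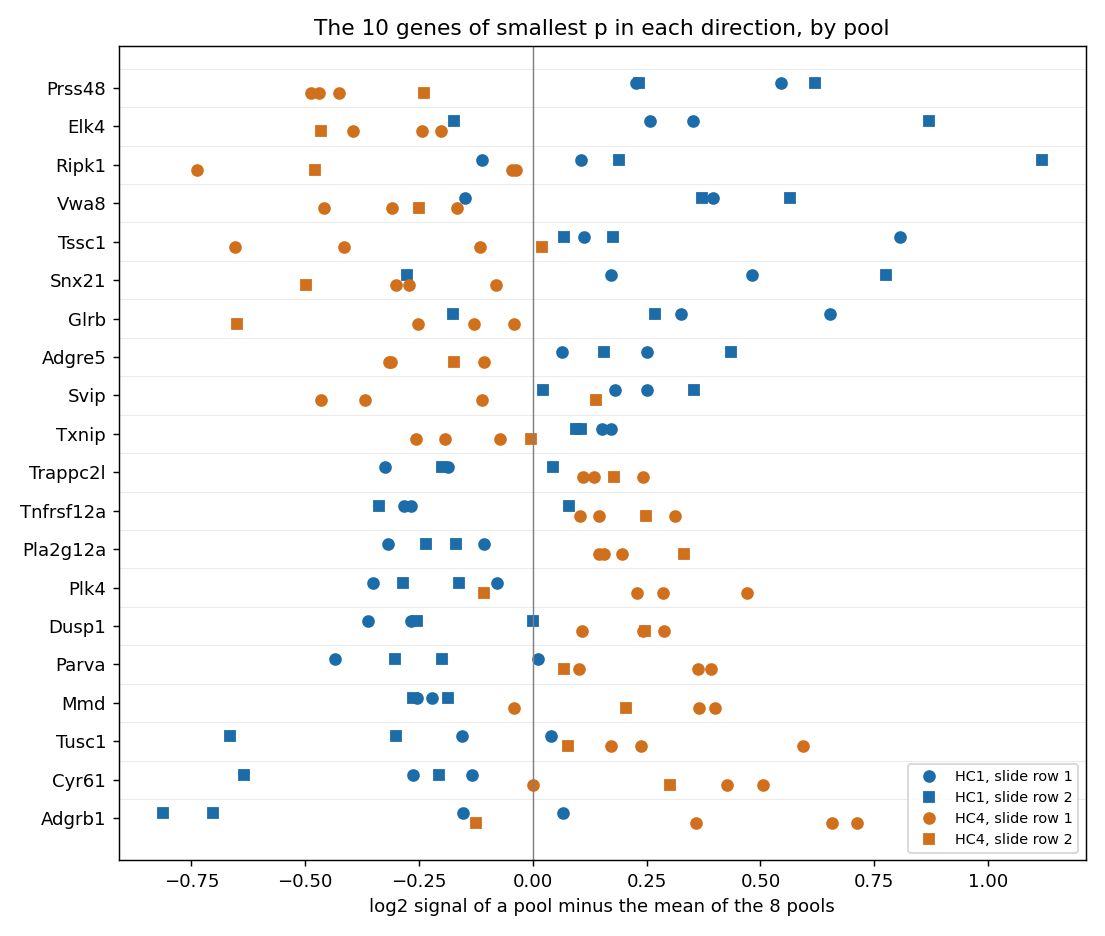
Level of each pool minus the mean of the 8 pools (log2 scale) for the 10 genes of smallest p in each direction that were well above background on all 8 arrays; colour gives the code and symbol the slide row. The codes do not overlap for 14 of the 20 genes.

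Array position was set beside the differences of these 20 genes. Within slide row 1, which held 2 HC1 and 3 HC4 pools, and within slide row 2, which held 2 HC1 pools and 1 HC4 pool, all 20 had the sign of the whole comparison. The same held in the 3 pairs of pools that shared both slide row and slide column, and in each of the 4 slide columns. Since the genes were chosen on all 8 pools, their sign within subsets is not independent of that choice. The size varied more: within row 1 and row 2 the difference was -0.54 and -0.12 for Plk4, 0.53 and 0.049 for Svip, and 0.85 and 0.10 for Tssc1. For Dusp1 it was -0.53 and -0.38, for Cyr61 -0.51 and -0.72, and for Pla2g12a -0.38 and -0.53. At matched positions Cyr61 differed by -0.75, Dusp1 by -0.42 and Pla2g12a by -0.45.

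**Figure D3:**
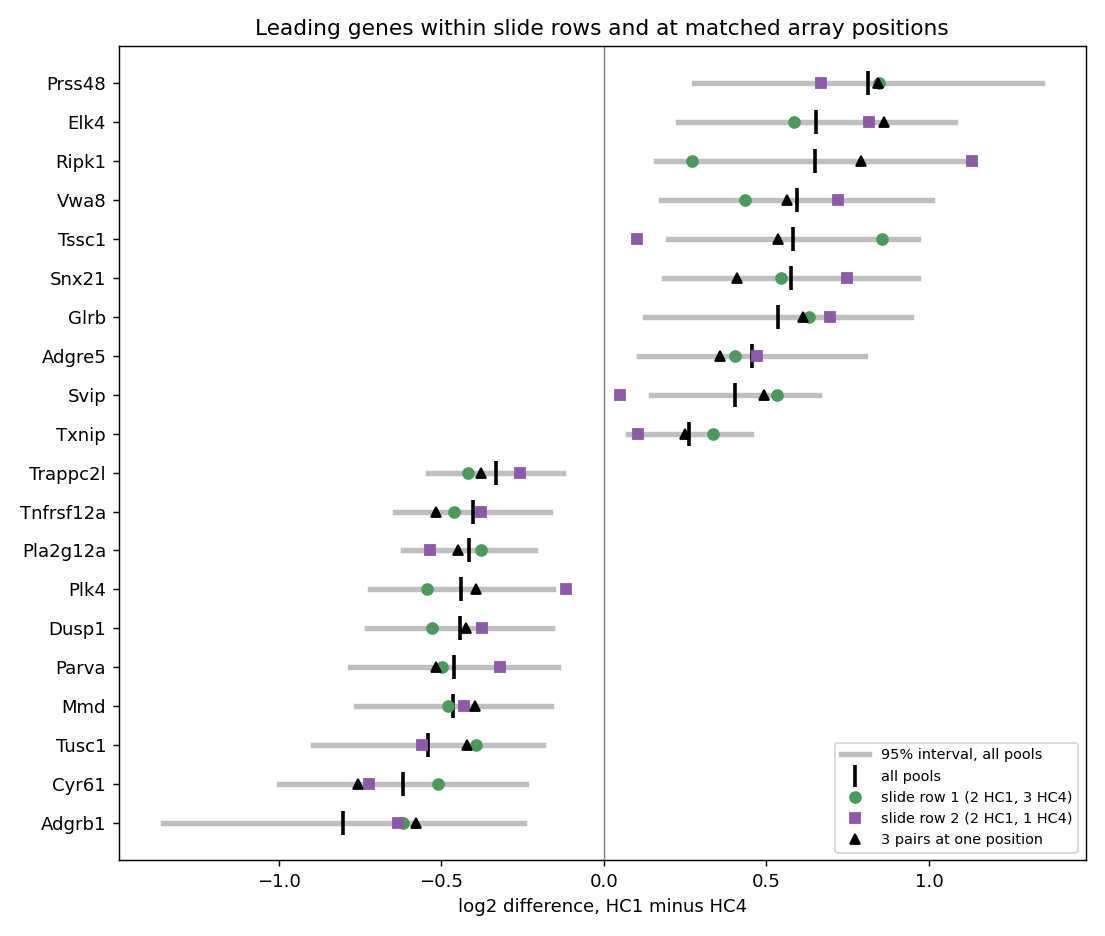
Log2 difference, HC1 minus HC4, of the 20 leading genes over all pools (bar, with the 95% interval in grey), within slide row 1, within slide row 2 and in the 3 pairs of pools at one array position. All points of a gene lie on its side of zero, and Svip, Tssc1, Txnip and Plk4 lie closest to zero in row 2.

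Between HC1 and HC4, some genes were detected on all 4 arrays of a code and on at most 1 of the other. How many did so over all genes was not counted, and up to 3 per direction are named by rule. The share of spots well above background was 44.2% in HC1 and 47.2% in HC4, and its part in these counts was not tested. The named genes were well above background on 9 to 16 of all 24 arrays, so other codes detected them too. Pxylp1, which encodes a phosphatase acting on the xylose of proteoglycan linkers, was well above background on 0 of 4 HC1 and 4 of 4 HC4 arrays. Its levels were -4.05, -2.85, -5.17 and -3.77 in HC1 pools 1 to 4 and -2.55, -2.20, -2.17 and -2.91 in HC4 pools 1 to 4. The codes overlapped, since HC1 pool 2 was above HC4 pool 4. The HC4 mean was 1.40-fold above the detection bound of HC1, and the fitted difference was -1.50 (SE 0.45, 95% interval -2.44 to -0.57). That bound is a mean over the HC1 arrays. Each array entered with its lowest signal that counted as well above background, or with the gene's own level where higher. The fold makes no allowance for the spread among pools. Stk10, a kinase that phosphorylates membrane-cytoskeleton linkers, was likewise detected on 0 and 4 arrays. Its levels were -4.87, -3.90, -4.61 and -4.17 in HC1 pools 1 to 4 and -3.02, -3.20, -3.14 and -3.09 in HC4 pools 1 to 4, without overlap, with a fitted difference of -1.27 (SE 0.32, 95% interval -1.93 to -0.61) and no fold, since the HC4 level was below the bound. A signal well above background on every HC4 array thus lay below the detection bound of HC1. Counts of 0 and 4 arrays therefore need not show a difference in level. Nudt18, a nucleotide hydrolase gene, was detected on 1 and 4 arrays and differed by -1.12 (SE 0.32, 95% interval -1.78 to -0.47). In the other direction Cul9 was detected on 4 HC1 arrays and 1 HC4 array and differed by 0.74 (SE 0.51, 95% interval -0.33 to 1.81).

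Irx3os and Fam167b were named after their values were seen. Irx3os, a noncoding transcript beside the homeobox gene Irx3, had the smallest p of all genes. Its levels were -1.08, -1.95, -3.15 and -1.10 in HC1 pools 1 to 4 and -3.57, -3.39, -3.51 and -3.36 in HC4 pools 1 to 4, and its detection counts were 3 of 4 HC1 and 0 of 4 HC4 arrays. The HC1 mean was 2.93-fold above the detection bound of HC4, without allowance for the spread among pools. The fitted difference was 1.64 (SE 0.30, 95% interval 1.002 to 2.27), with an adjusted p of 0.537 (limma). Without HC1 pool 3, the HC1 pool at the level of HC4, the difference was 2.08 with an adjusted p of 7.19e-05 (limma). Fam167b was at no value, -4.80, -5.03 and -4.58 in HC1 pools 1 to 4 and at -0.10, -0.071, -1.69 and -5.35 in HC4 pools 1 to 4. Its difference was -3.001 (SE 0.90, 95% interval -4.88 to -1.12). Fam167b was well above background on 1 of 4 HC1 and 3 of 4 HC4 arrays and on 5 of 24 in all. It thus passed the background filter only with its HC4 arrays, the code in which it was high. Without HC4 pool 4, the HC4 pool at the level of HC1, its difference was -4.18 with an adjusted p of 0.0171 (limma). Both calls arose only when the pool at the level of the other code was left out, so they support no difference. A further feature without a gene name was called without HC4 pool 4.

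The estrogen receptor transcripts that could be measured lay close to equality. Esr1, the gene of estrogen receptor alpha, was not tested: of its 7 probes, the best was well above background on 2 of 24 arrays. Gper1 had 1 probe, well above background on 0 of 24 arrays, and Esrrg had 3 probes, well above background on at most 1. Esr2, which encodes estrogen receptor beta, was at 2.09, 2.24, 1.77 and 2.15 in HC1 pools 1 to 4 and 2.11, 1.94, 1.98 and 2.17 in HC4 pools 1 to 4. The pools of the codes were mixed, the difference was 0.016 (SE 0.11), and the 95% interval was -0.21 to 0.24. The orphan receptors Esrra and Esrrb, which bind related DNA sites without estrogen, differed by -0.17 (SE 0.14) and -0.022 (SE 0.12). Of 16 tested receptors and coregulators 7 were higher in HC1 and 9 lower, 0 with p under 0.05, with a median of -0.014. With slide row as a block the split was 10 higher and 6 lower and the median 0.0049. The coregulators of smallest p were Prmt1 at -0.24 (SE 0.19, 95% interval -0.63 to 0.15), an arginine methyltransferase, and Nrip1 at -0.23 (SE 0.19, 95% interval -0.62 to 0.15), a corepressor.

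Of 29 tested genes of membrane estrogen receptor signalling, 10 were higher in HC1 and 19 lower, with a median of -0.032. An unadjusted p under 0.05 was found for 1 in each direction, against 0.818% and 1.64% of all genes. Prkcd encodes the delta form of protein kinase C. Its levels were -0.78, -0.84, -1.14 and -0.66 in HC1 pools 1 to 4 and -0.37, -0.47, -0.56 and -0.38 in HC4 pools 1 to 4, with every HC1 pool below every HC4 pool and a difference of -0.41 (SE 0.17, 95% interval -0.76 to -0.055). Pik3r1 encodes the regulatory subunit of PI3-kinase and was higher in HC1, with levels of 1.05, 0.59, 0.85 and 0.95 in HC1 pools 1 to 4 and 0.32, 0.77, 0.67 and 0.43 in HC4 pools 1 to 4. The codes overlapped and the difference was 0.31 (SE 0.14, 95% interval 0.024 to 0.60). Prkaca, the catalytic subunit of protein kinase A, differed by -0.14 (SE 0.08, 95% interval -0.30 to 0.031). Egfr, the epidermal growth factor receptor, was well above background on 1 HC1 and 3 HC4 arrays. Its levels were -3.40, -3.60, -2.62 and -3.44 in HC1 pools 1 to 4 and -0.53, -3.14, -1.85 and -3.55 in HC4 pools 1 to 4, spread widely in HC4, with a difference of -0.996 (SE 0.62, 95% interval -2.29 to 0.30). The 12 tested classical estrogen targets had a median of -0.018, 6 higher and 6 lower, 0 with p under 0.05. Ccnd1, which encodes cyclin D1, differed by -0.56 (SE 0.31, 95% interval -1.20 to 0.085) and Krt19, a keratin gene, by -0.55 (SE 0.32, 95% interval -1.21 to 0.11).

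Most lineage markers lay close to equality. All 23 markers of the inner cell mass and epiblast were well above background on all 8 arrays, with 6 higher and 17 lower in HC1, a median of -0.064 and 0 with p under 0.05. With slide row as a block 10 were higher and 13 lower, with a median of -0.028, against -0.015 over all genes in that fit. The pluripotency factors Pou5f1, Sox2 and Nanog differed by -0.16 (SE 0.18), -0.17 (SE 0.19) and -0.15 (SE 0.23). Nanog gave 0.42 and 0.48 with normexp and quantile normalization and in the authors' deposited table, and the cause was not tested. Of 27 tested trophectoderm markers 14 were higher and 13 lower, with a median of 0.0075 and 0 with p under 0.05. Cdx2, Gata3 and Eomes, factors that specify trophectoderm, differed by -0.064 (SE 0.20), 0.14 (SE 0.16) and -0.11 (SE 0.19). Of 25 primitive endoderm markers 8 were higher and 17 lower, with a median of -0.039. Gata6 and Sox17, factors that specify it, differed by -0.010 (SE 0.12) and -0.065 (SE 0.16).

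The member of these lists with p under 0.05 was Rhox5, an X-linked homeobox gene, outside the naming rule as a gene of a multigene family. Its levels were 3.42, 4.52, 4.29 and 4.34 in HC1 pools 1 to 4 and 4.95, 5.06, 4.57 and 4.44 in HC4 pools 1 to 4. HC1 pool 1 was the lowest of the 8 and the codes overlapped at HC4 pool 4. The difference was -0.62 (SE 0.25, 95% interval -1.14 to -0.093), -0.98 within slide row 1 and -0.041 within slide row 2. The 29 tested genes of cavitation, the pumps, channels and junctions that form the blastocoel, had a median of -0.00047, 14 higher and 15 lower, 0 with p under 0.05, and with slide row as a block a median of 0.018, 18 higher and 11 lower. Of 24 tested Hippo pathway genes and YAP targets, 5 were higher and 19 lower, with a median of -0.082. Cyr61 was the member with p under 0.05, and it is also on the immediate early list. Of the other YAP targets, Ctgf differed by -0.25 (SE 0.40) and Ankrd1 by -1.07 (SE 0.78). With slide row as a block, 9 of the 24 were higher and 15 lower.

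The ribosomal protein genes leaned to one side. All 27 tested had a lower mean in HC1, with differences from -0.22 to -0.0015, a median of -0.095 and 0 with p under 0.05. The members of smallest p were Rps6 at -0.14 (SE 0.08, 95% interval -0.29 to 0.019), Rps2 at -0.19 (SE 0.10, 95% interval -0.40 to 0.026), Rps14 at -0.20 (SE 0.11, 95% interval -0.44 to 0.029) and Rpl13a at -0.22 (SE 0.12, 95% interval -0.48 to 0.034). The mean deviation of the list was -0.062, -0.18, -0.017 and -0.036 in HC1 pools 1 to 4 and 0.058, 0.082, 0.053 and -0.060 in HC4 pools 1 to 4. HC4 pool 4 lay among the HC1 pools. The median was below 0 in every alternative run, from -0.18 within slide 1 to -0.032 within slide 3. Over all genes, 42.3% were higher in HC1. The share of spots well above background was 44.2% in HC1 and 47.2% in HC4, and the part of array brightness in the result was not tested.

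Stress and metabolic lists had 0 or 1 member each with p under 0.05, to be read against 0.818% of all genes higher and 1.64% lower in HC1, and no such count is taken as a result about its list. Of 27 tested p53 targets and apoptosis genes 7 were higher and 20 lower, with a median of -0.10 and 1 with p under 0.05. That was Bid, which carries death receptor signals to mitochondria. Its levels were -0.87, -1.23, -1.16 and -1.01 in HC1 pools 1 to 4 and -0.53, -0.48, -0.67 and -0.65 in HC4 pools 1 to 4, without overlap, with a difference of -0.48 (SE 0.20, 95% interval -0.89 to -0.073). Of 30 unfolded protein and amino acid response genes 7 were higher and 23 lower (median -0.057). Its member with p under 0.05 was Sdf2l1, an endoplasmic reticulum chaperone cofactor. Sdf2l1 was at 0.42, 0.45, 0.38 and 0.46 in HC1 pools 1 to 4 and 0.65, 0.71, 0.67 and 0.64 in HC4 pools 1 to 4, with an SD of 0.03 in each code, no overlap and a difference of -0.24 (SE 0.11, 95% interval -0.47 to -0.0044). Of 22 heat shock genes 7 were higher and 15 lower (median -0.047), and Hspb8, a small heat shock protein gene, differed by -0.60 (SE 0.24, 95% interval -1.10 to -0.11). Hspa4l was at 1.27 in HC1 pool 2 and between -0.89 and -0.52 in the other 7 pools.

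Of 21 NRF2 antioxidant genes 3 were higher and 18 lower (median -0.084), and Srxn1, which repairs peroxiredoxins, differed by -0.52 (SE 0.24, 95% interval -1.02 to -0.011). With slide row as a block, 7 of the 21 were higher and 14 lower, and 0 had p under 0.05. Of 26 glycolysis and glucose transport genes 10 were higher and 16 lower (median -0.055). Slc16a3, the lactate exporter, was well above background on 1 HC1 and 4 HC4 arrays and differed by -0.80 (SE 0.30, 95% interval -1.43 to -0.18). Of 36 oxidative phosphorylation genes 9 were higher and 27 lower, with a median of -0.038, and of 22 cholesterol synthesis genes 7 were higher and 15 lower, with a median of -0.049, 0 with p under 0.05 in either list. Of 13 tested genes of steroid hormone synthesis 5 were higher and 8 lower (median -0.076), and Fdx1, which passes electrons to steroidogenic enzymes, differed by -0.23 (SE 0.10, 95% interval -0.44 to -0.033).

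Of 36 tested imprinted genes 13 were higher and 23 lower, with a median of -0.058 and 2 with p under 0.05, both lower in HC1, against 1.64% of all genes. They were Cd81, which encodes a tetraspanin, at -0.59 (SE 0.23, 95% interval -1.06 to -0.12), and Tssc4 at -0.30 (SE 0.13, 95% interval -0.56 to -0.036). Tssc4 was at 1.21, 1.48, 1.62 and 1.49 in HC1 pools 1 to 4 and 1.70, 1.75, 1.87 and 1.69 in HC4 pools 1 to 4, without overlap. Of 37 cell cycle and replication genes 12 were higher and 25 lower, with a median of -0.035 and 0 with p under 0.05. Of 18 interferon and antiviral genes 8 were higher and 10 lower (median -0.081). Zbp1, a sensor of nucleic acids, was higher in HC1 by 0.80 (SE 0.30, 95% interval 0.16 to 1.43) and Ifi35 differed by -0.42 (SE 0.18, 95% interval -0.80 to -0.040).

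**Figure D4:**
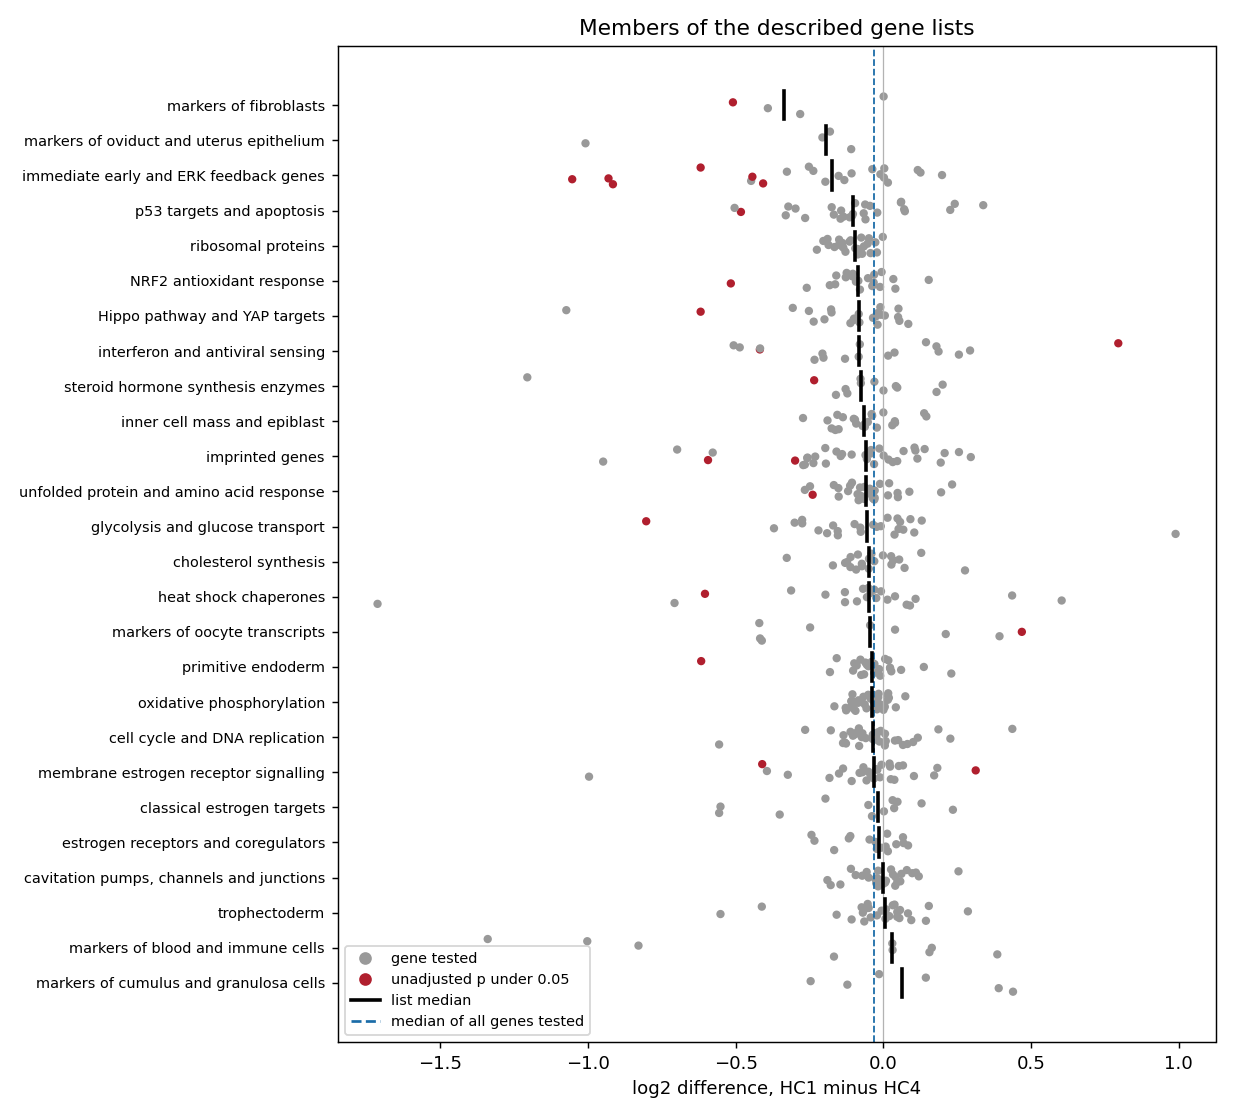
Log2 difference, HC1 minus HC4, of every tested member of 26 gene lists, with members of unadjusted p under 0.05 in red, list medians as black bars and the median of all genes as a dashed line. The 6 red members of the immediate early list lie on the lower side, the ribosomal proteins form a narrow group below zero, and most other lists centre near the dashed line.

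Markers of other cells were set beside these results. Of 10 fibroblast markers 4 were tested, and the median was -0.34. Vim, which encodes vimentin, was at 2.40, 1.82, 1.57 and 2.23 in HC1 pools 1 to 4 and 2.64, 2.64, 2.46 and 2.32 in HC4 pools 1 to 4, with a difference of -0.51 (SE 0.20, 95% interval -0.93 to -0.090). Thy1 differed by -0.39 (SE 0.32), Pdgfrb, well above background on 0 HC1 and 2 HC4 arrays, by -0.28 (SE 0.40) and Acta2 by 0.0013 (SE 0.13). The mean deviation of the list was -0.46 to -0.11 in HC1 and 0.035 to 0.23 in HC4, without overlap. It rests on these 4 genes. Of the 39 lists drawn up it was the only list without overlap, so the separation is not taken as a result. The mean deviation of the immediate early list was -0.26 to -0.060 in HC1 and -0.068 to 0.23 in HC4, with overlap. Within the codes the most extreme pool of the 2 lists differed, while the order of the pools was partly shared. In HC1 the fibroblast list was lowest in pool 1 and the immediate early list in pool 2. In HC4 the fibroblast list was at 0.23, 0.058, 0.046 and 0.035 in pools 1 to 4. The immediate early list was at 0.20, 0.23, 0.10 and -0.068 there. Both were thus lower in HC4 pools 3 and 4 than in HC4 pools 1 and 2. The collagen markers Col1a1, Col1a2 and Col3a1 did not pass the background filter. Whether other cells had a part in the result was not tested.

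Of 20 oocyte transcripts 9 were tested, 4 higher and 5 lower, with a median of -0.044, or -0.23 with slide row as a block. H1foo, the oocyte linker histone, lay on the other side, at 0.47 (SE 0.22, 95% interval 0.018 to 0.92). Of 18 cumulus and granulosa markers 6 were tested, with a median of 0.065, and of 15 blood and immune markers 9, with a median of 0.031. Of the latter, S100a9 was well above background on 1 HC1 and 4 HC4 arrays and differed by -1.34 (SE 0.66, 95% interval -2.71 to 0.030). Of 11 oviduct and uterus markers 4 were tested, 0 higher and 4 lower, with a median of -0.19. None of the last 3 lists held a member with p under 0.05, while with slide row as a block the oviduct and uterus list held 1, lower in HC1.

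The sex makeup of the pools was compared through X- and Y-linked transcripts. Xist, expressed from the inactive X chromosome of females, was at -1.83, 0.92, -0.15 and 0.75 in HC1 pools 1 to 4 and 0.69, 0.51, 0.24 and 0.20 in HC4 pools 1 to 4. HC1 pool 1 stood far below the other 7 pools, and the difference was -0.49 (SE 0.44), which turned to 0.097 without that pool. The Y-linked genes Ddx3y and Uty were higher in HC1, by 0.72 (SE 0.58) and 0.62 (SE 0.54), and Kdm5d and Eif2s3y differed by -0.29 (SE 0.36) and -0.056 (SE 0.36). Eif2s3y was at 1.77, 0.38, 1.27 and 0.91 in HC1 pools 1 to 4 and 0.57, 1.28, 1.24 and 1.47 in HC4 pools 1 to 4, highest in the pool in which Xist was lowest. None of these genes had p under 0.05. Of 510 X-linked genes tested 33.7% were higher in HC1, with a median of -0.062, against 42.3% and -0.031 over all genes. Chromosome 4 was nearly the same, with 33.8% of 928 genes higher and a median of -0.052. Without HC1 pool 1, 4 members of the immediate early list were under 0.05, Cyr61, Dusp1, Ier3 and Jun.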

How the data were processed

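RNA of 24 mouse blastocyst pools was measured on one-colour Agilent arrays, and the 8 pools of HC1 and HC4 are compared here. The deposited scanner files give the linear intensity of each spot, which the authors extracted in Feature Extraction software from Agilent, version 10.10.1.1 in the file headers. According to those headers the processed intensity had its background removed and was detrended, with no scaling across arrays. Further deposited columns flag spots, as 0 or 1, for being well above background, saturated or outlying. Saturation was recorded on 0 spots. A deposited log2 table by the authors served as an alternative. Each column followed its own array (r across probes 0.834 to 0.892). How it was normalized and its probes chosen is not given in the sources used here. Limma, without a version, is also listed in the submitters' processing notes.

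After removal of control and outlier spots, log2 processed signals were averaged per probe and the array's own 75th percentile was taken off. Probes had to be well above background on 4 or more of 24 arrays, with 2 or more values in each code, and the brightest kept probe stood for a gene. Of 56605 probes 27144 passed and gave 18465 genes, counting features without a symbol. One model with 6 code means was fitted to the 24 arrays with limma 3.58.1 (lmFit and eBayes) in R 4.3.3, with Benjamini-Hochberg adjustment over all genes at 0.05. The code was tested on simulated arrays. The number of arrays limits the precision. A detected-on-1-side gene was given a fold only over a detection bound. That fold is the mean of the brighter code over a mean bound of the dimmer code, without allowance for the spread among pools. For each array of the dimmer code the bound took its lowest well-detected signal, or the gene's own level where higher. Python 3.11.15, numpy 2.4.6, pandas 2.3.3, scipy 1.17.1 and matplotlib 3.10.9 were also used, with data.table at version 1.17.8.

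The comparison, the gene lists and the tests were chosen with earlier results of these data known. The rule named the 10 genes of smallest p in each direction among those well above background on all 8 arrays, up to 3 genes per direction detected on all 4 arrays of a code and at most 1 of the other, up to 4 members of a described list, and fixed lineage, estrogen receptor and sex-linked genes. Features without a symbol and near-identical families were not named, apart from Rhox5. Alternatives covered background correction, scaling, the filter, the probe rule, the array position as a block, the replicate number as a block and each pool left out. Those chosen after seeing the data were the 3 pairs at a shared position and slide with slide row as blocks.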

Additional observations from a re-analysis of the deposited data

Results flagged for a closer look

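In each code, the highest or lowest of the 4 pools was set against the others by the gap to its nearest neighbour as a share of the range (Dixon's test at 95%). Chance alone flags about 1 in 20 groups. Of 242 groups examined, 12 stood out.

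In HC1, Tssc1 was highest in pool 4, at -0.15 against -0.89 to -0.78 in the other pools. Tnfrsf12a was highest in HC1 pool 3, at 0.64 against 0.23 to 0.30. Esrra was lowest in HC1 pool 2, at 2.84 against 3.16 to 3.22. Hspa4l was highest in HC1 pool 2, at 1.27 against -0.77 to -0.52. The mean deviation of the cavitation list was lowest in HC1 pool 2, at -0.057 against 0.054 to 0.069. That of the fibroblast markers was lowest in HC1 pool 1, at -0.46 against -0.13 to -0.11, and HC1 pool 1 was also the pool with the lowest Xist level.

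In HC4, Spred1 was lowest in pool 4, at -1.55 against -1.22 to -1.19. H1foo was lowest in HC4 pool 4, at -1.64 against -1.03 to -0.90. Prkaca was lowest in HC4 pool 4, at 2.25 against 2.35 to 2.36. Nrip1 was highest in HC4 pool 3, at 0.054 against -0.47 to -0.39. The mean deviation of the classical estrogen targets was highest in HC4 pool 1, at 0.19 against -0.060 to -0.020, and that of the fibroblast markers was highest in HC4 pool 1, at 0.23 against 0.035 to 0.058.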

How the results depend on the processing

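Depth does not apply to arrays, and the number of pools limits what can be seen: the median standard error was 0.194 on the log2 scale. No alternative that kept all 8 pools gave a call at an adjusted p under 0.05. Leaving out 1 pool gave 0 to 2 calls, 1 without HC1 pool 3 and 2 without HC4 pool 4, and 330 to 861 genes at an unadjusted p under 0.05, of which 112 to 288 were higher in HC1 and 199 to 573 lower. Those counts were 454, 151 and 303 in the comparison as reported. Without the background filter they were 2124 genes, 1829 of them higher in HC1, with the median of all genes at 0.124. With probes well above background on all 8 arrays they were 289 and 86. With only the 8 arrays and slide column as a block they were 805 and 402. In the 3 pairs at a shared position they were 916 and 495. The percentile over probes detected on all arrays gave 195 lower genes. The cause of these shifts was not tested. The replicate numbers are shared between codes, but same-numbered pools did not deviate together (correlations of 0.114, -0.0035, -0.106 and -0.324), so they do not pair the pools. With the replicate block the counts were 0 calls and 495 genes at an unadjusted p under 0.05, 163 higher and 332 lower.

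The median of the immediate early list was below 0 in each alternative, -0.048 in the authors' deposited table, -0.023 within slide 3 and -0.30 to -0.11 with a pool left out. That of the ribosomal proteins was -0.18 within slide 1 and -0.14 to -0.069 with a pool left out. Genes near equality changed sign, and the cause was not tested. With normexp and quantile normalization Esrrb was at 0.0038, Nanog at 0.42, Gata6 at 0.023 and Dusp6 at 0.013. With quantile normalization of the processed signal Esrrb was at 0.022, Gata6 at 0.026 and Dusp6 at 0.029. With the percentile over detected probes Esrrb was at 0.018, Gata6 at 0.030, Dusp6 at 0.030 and Etv4 at 0.0030. In the authors' deposited table Nanog was at 0.48, Gata6 at 0.021 and Acta2 at -0.025. As means of their probes Elk4 was at -0.10, Adgrb1 at 0.020, Nanog at 0.18, Myc at -0.048 and Spred2 at -0.14. With slide as a fixed block Cdx2 was at 0.021, Eif2s3y at 0.017, Etv5 at -0.032 and Junb at -0.023, and with slide as a random block Acta2 at -0.017. With slide row as a block Esrrb was at 0.0072, Gata6 at 0.024, Eif2s3y at 0.023, Dusp6 at 0.015, Etv5 at -0.017 and Myc at -0.044. With row and column as blocks Esrrb was at 0.0062, Gata6 at 0.025, Eif2s3y at 0.032, Dusp6 at 0.016, Etv5 at -0.019 and Myc at -0.044. In the 3 position pairs Esrrb was at 0.056, Nanog at 0.0091, Gata6 at 0.017, Kdm5d at 0.0012, Acta2 at -0.13, Dusp6 at 0.046, Etv5 at -0.042 and Myc at -0.054. With slide and row as blocks Gata6 was at 0.033, Eif2s3y at 0.11, Etv5 at -0.055 and Myc at -0.046.

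With a pool left out the ranges that crossed 0 were -0.13 to 0.028 for Cdx2, -0.82 to 0.097 for Xist, -0.52 to 0.041 for Pdgfrb, -0.056 to 0.052 for Etv5, -0.073 to 0.10 for Junb and -0.011 to 0.18 for Spred2. They were -0.044 to 0.11 for Esr2, -0.29 to 0.18 for Eif2s3y, -0.00070 to 0.32 for Dusp5, -0.087 to 0.060 for Dusp6, -0.17 to 0.080 for Etv4 and -0.14 to 0.040 for Esrrb. They were -0.10 to 0.11 for Acta2, -0.097 to 0.053 for Myc, -0.067 to 0.033 for Gata6, -0.17 to 0.0019 for Sox17 and -0.79 to 0.093 for Egr1. Irx3os, Fam167b and 1 feature without a gene name gained an adjusted p under 0.05, each in 1 of these alternatives.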
